A study of Mus musculus with 7 samples.

Results

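The genes described here mark blood vessel endothelium (18 listed genes) and fibroblasts or other mesenchymal stroma (15 listed genes), read in an epithelial cell population sorted from mouse thymus. The list of 33 genes was given by name. Each was read from the probe set with the highest mean among those that carry a single gene symbol, and 32 of the 33 had one, of 19937 genes so measured. Every one of the 32 rested on 1 probe set. Ly6c1, a surface glycoprotein of small vessels that leukocytes carry too, was present only on probe sets shared with a second symbol, so it has no value here.

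Endothelial cells line the vessels of the thymus, through which progenitors enter and mature T cells leave. They are recognised by junction proteins such as PECAM1 and VE-cadherin, and by the receptors for VEGF and the angiopoietins. Thymic fibroblasts fill the capsule, the septa and the space around vessels, lay down fibrillar collagens and small proteoglycans, and carry the receptors for platelet-derived growth factor. Neither type belongs to the epithelial lineage that was sorted.

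The cells were medullary epithelial cells (MECs) with high MHC class II, the stromal cells that present tissue antigens to maturing thymocytes, and all 7 samples came from mice of the NOD strain. The reconRAG1KO group (4 samples) came from NOD mice with null RAG1, the recombinase gene whose loss stops lymphocyte development. The reconSCID group (3 samples) came from NOD mice with SCID, a mutation in the DNA-dependent protein kinase (DNAPK) that also blocks antigen receptor joining. In both groups pups of 2 to 4 days were irradiated with 200 rad and given bone marrow into the peritoneum 6 hours later, and the thymi were taken 6 to 8 weeks after that. Thymi were digested with Collagenase Dispase, cells were sorted into Trizol, and 6 µg of total RNA per sample went onto Affymetrix arrays. No group without irradiation or transfer was analysed here, the labels do not say how many thymi make up a sample, and p-values therefore measure the spread between these samples only. In bulk RNA of this kind, fewer cells of a type and less RNA per cell cannot be told apart.

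The arrays fell into 2 sets that the groups do not explain. ReconRAG1KO replicate 4 and reconSCID replicate 2 correlated with each other at 0.972 but with the other 5 arrays at only 0.922 to 0.947, while those 5 correlated at 0.976 to 0.990. No label names a batch. Because the set of 2 and the set of 5 each hold both groups, results are given over all 7 arrays, after blocking on the array set, and separately for the 2 and the 5. The sorted type's own markers were high on every array: on the log2 scale used throughout, Epcam read 8.91 to 10.35, Aire 9.73 to 11.93 and H2-Aa 12.21 to 12.95. The female-specific RNA Xist read 8.02 to 9.96 in reconRAG1KO replicate 2 and reconSCID replicates 1 and 3 and between 5.11 and 6.22 in the others. Sex entered no fit. On the 5 arrays, Xist was high in both reconSCID arrays but, of the reconRAG1KO arrays, only in replicate 2. Both arrays that stood apart were low (5.26 and 5.68). Differences between the array sets therefore cannot be fully told apart from sex. The same holds for group differences on the 5 arrays and over all 7, with or without the block.

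The endothelial and fibroblast genes were higher on the 2 arrays that stood apart, whichever group the array belonged to, and did not separate the groups. Both arrays read above all 5 others for 13 of 17 endothelial genes (76.5%) and 15 of 15 fibroblast genes, against 37% of all genes. They read below all 5 for 1 endothelial gene, Kdr, and for none of the fibroblast genes, against 20.1% of all genes. The median difference, the mean of the 2 arrays minus the mean of the 5, was 0.61 for the endothelial and 1.21 for the fibroblast genes on the log2 scale, against 0.12 for all genes. Of the 199 genes that make up the highest 1% by this difference, 9 were listed fibroblast genes and 2 were listed endothelial genes. The sets were defined from the arrays themselves, so these values are a description with no test.

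**Figure D1:**
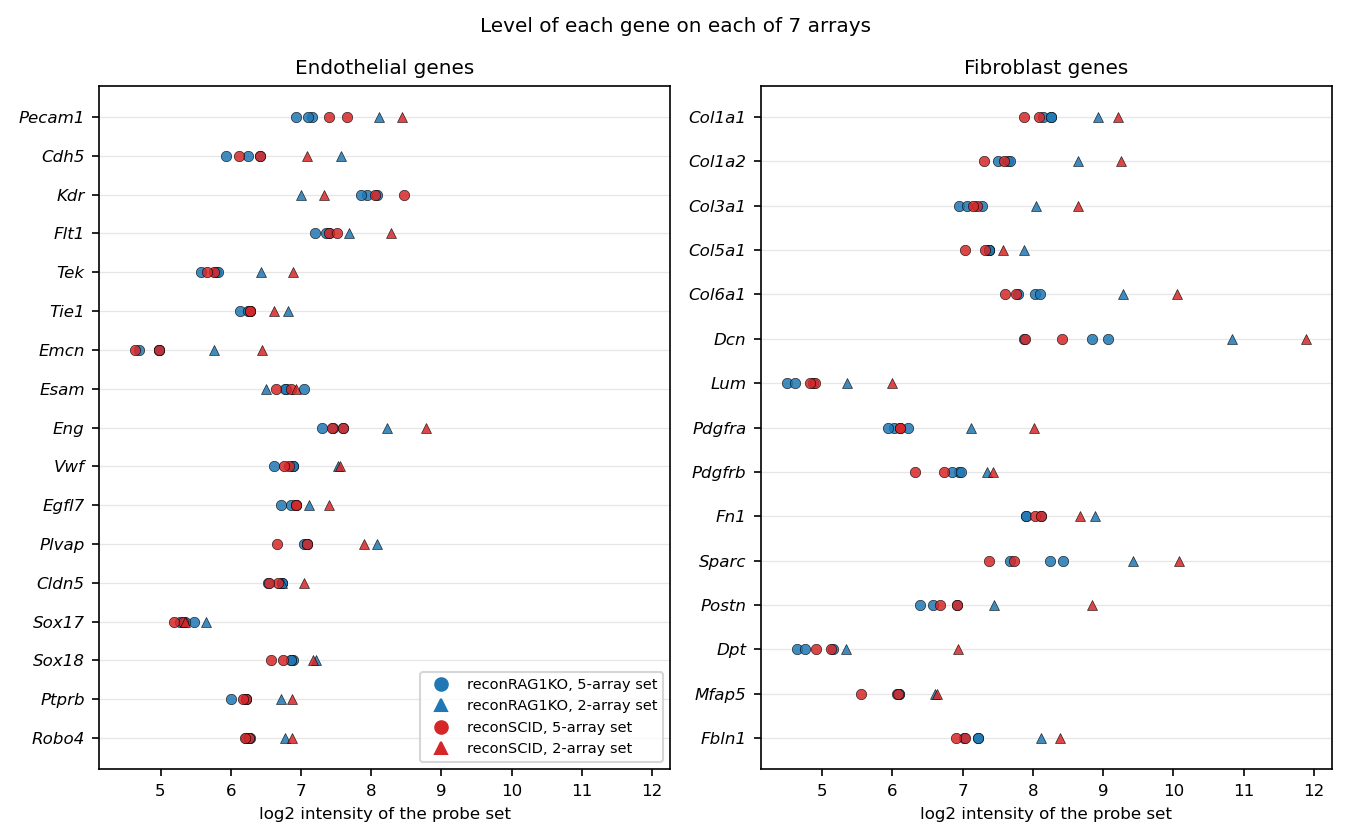
Level of each measured gene (log2 intensity, horizontal axis) on each of the 7 arrays, endothelial genes on the left and fibroblast genes on the right; colour gives the group, triangles mark reconRAG1KO replicate 4 and reconSCID replicate 2, and circles mark the other 5 arrays. The triangles lie to the right of every circle for 13 of 17 endothelial and 15 of 15 fibroblast genes, while red and blue overlap for every gene.

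Among the endothelial receptors, the VEGF receptor genes Kdr and Flt1 differed between the array sets in opposite directions, while the other 5 receptor genes had the direction of Flt1. Kdr, the main signalling receptor for VEGF-A, read 8.08, 7.93, 7.86 and 7.01 in reconRAG1KO replicates 1 to 4 and 8.06, 7.33 and 8.47 in reconSCID replicates 1 to 3. Its lowest values were thus on the 2 arrays where nearly all other members were highest, by 0.91 on the log2 scale. Flt1, which binds VEGF-A and in a soluble form holds it back, read 7.20, 7.40, 7.35 and 7.68 in reconRAG1KO and 7.40, 8.29 and 7.51 in reconSCID. Its highest value was on reconSCID replicate 2, and the groups overlapped. Eng, the endoglin co-receptor for TGF-β family ligands, read 7.60, 7.46, 7.30 and 8.22 against 7.45, 8.78 and 7.60. It was 2.03 times as high on the 2 arrays as on the 5 and otherwise stayed between 7.30 and 7.60. The angiopoietin receptor Tek (2-array mean 6.66, 5-array mean 5.72), its partner Tie1 (6.72 and 6.24), the guidance receptor Robo4 (6.82 and 6.24) and the phosphatase Ptprb (6.79 and 6.17), which acts on TEK and VE-cadherin, shared this order of levels.

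Promoter sequence is shown for the 2 VEGF receptor genes that differed in opposite directions and for 3 other endothelial genes, Emcn, Eng and Robo4. Those 3 were picked because their only RefSeq promoter holds the letters AGGAAG on either strand, so their matches below were fixed by that choice. Each window is the 150 bases before the transcription start in RefSeq (GRCm38.p6), 5′ to 3′ on the gene's strand. Capitals mark matches on either strand to AGGAAG, the core letters of sites for ETS factors, a family that endothelial genes often use, and to the TATA box letters TATAAA where present. The Kdr window lies on the minus strand at chr5:75978456-75978605 and the Flt1 window on the minus strand at chr5:147726012-147726161. The Emcn window is chr3:137340928-137341077, the Eng window chr2:32646445-32646594 and the Robo4 window chr9:37401822-37401971, all on the plus strand.
Kdr: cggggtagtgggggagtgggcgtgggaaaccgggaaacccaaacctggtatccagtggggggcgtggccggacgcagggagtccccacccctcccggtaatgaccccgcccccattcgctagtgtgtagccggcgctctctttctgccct
Flt1: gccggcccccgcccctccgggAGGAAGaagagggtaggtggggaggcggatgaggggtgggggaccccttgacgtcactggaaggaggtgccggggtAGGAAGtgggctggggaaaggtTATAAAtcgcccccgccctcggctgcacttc
Emcn: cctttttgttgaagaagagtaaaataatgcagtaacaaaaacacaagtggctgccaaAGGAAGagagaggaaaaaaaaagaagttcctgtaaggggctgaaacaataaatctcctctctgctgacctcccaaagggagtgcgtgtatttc
Eng: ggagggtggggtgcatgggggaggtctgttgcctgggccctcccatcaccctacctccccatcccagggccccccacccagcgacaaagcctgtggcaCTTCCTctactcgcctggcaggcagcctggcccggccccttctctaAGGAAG
Robo4: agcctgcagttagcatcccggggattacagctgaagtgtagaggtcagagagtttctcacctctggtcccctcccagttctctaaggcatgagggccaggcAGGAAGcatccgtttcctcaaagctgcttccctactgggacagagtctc
The Flt1 window holds the ETS letters at 2 places and the TATA letters at 1, Eng holds the ETS letters at 2 places on opposite strands, Emcn and Robo4 hold them at 1 place each, and the Kdr window holds neither of these nor the letters CCAAT. Over the listed genes with a RefSeq promoter in the table, the ETS letters stood in 6 of 10 endothelial and 1 of 9 fibroblast genes, against 22% of 27025 genes. The 6 endothelial genes were Flt1, Emcn, Eng, Robo4, Egfl7 and Ly6c1, and all but Ly6c1, which has no value here, had both arrays above all 5. The endothelial genes without the letters were Kdr, Tek, Tie1 and Cldn5. Of these, Tek and Tie1 had both arrays above all 5, Kdr had both below and Cldn5 had neither. A link between the letters and the array difference was not tested. TATAAA stood in 2 of 10 and 2 of 9, against 8.89%, and the CCAAT letters in 2 of 10 and 1 of 9, against 27.7%, each counted on either strand with the 3 motifs searched separately. Such matches describe letters in a window and are neither sites nor causes.

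Of the 6 junction and surface genes measured, 4 had both of the 2 arrays above all 5, compared with 6 of the 7 receptors. Pecam1 (probe set 10392221), the adhesion molecule at endothelial contacts that platelets and several leukocytes also carry, read 6.94, 7.15, 7.10 and 8.12 in reconRAG1KO and 7.40, 8.44 and 7.65 in reconSCID. Within each array set its reconSCID values lay above its reconRAG1KO values, but over all 7 arrays reconRAG1KO replicate 4 exceeded reconSCID replicates 1 and 3. Cdh5, the VE-cadherin of adherens junctions and the more restricted endothelial marker, read 5.93, 6.24, 6.42 and 7.56 against 6.42, 7.09 and 6.11. Its highest value was therefore in reconRAG1KO, and it was 2.15 times as high on the 2 arrays as on the 5. Plvap, which forms the diaphragms of fenestrated vessels, read 7.04, 7.08, 7.09 and 8.08 against 7.09, 7.90 and 6.65, with the same array pattern. Emcn, the sialomucin of veins and capillaries, had a mean of 4.85 on the 5 arrays and 6.10 on the 2, a 2.38-fold difference and the largest of the endothelial genes, at a low level. The tight junction genes Esam (6.51 to 7.05) and Cldn5 (6.53 to 7.05) spanned little and did not separate the sets.

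Among the secreted and transcription factor genes, Egfl7 (0.38), Sox18 (0.41) and Sox17 (0.17) had array set differences below the endothelial median of 0.61. That of Vwf (0.75) was above it. Egfl7, a secreted vessel protein, read 6.93, 6.86, 6.71 and 7.12 in reconRAG1KO and 6.93, 7.39 and 6.93 in reconSCID. The clotting factor carrier Vwf had means of 6.79 on the 5 arrays and 7.54 on the 2. Both again had their 2 highest values on the 2 arrays. Sox18, a vascular transcription factor, read 6.89, 6.86, 6.86 and 7.22 against 6.57, 7.18 and 6.74, and its relative Sox17 read 5.48, 5.28, 5.34 and 5.65 against 5.32, 5.34 and 5.19. Sox17 did not separate the array sets, and on the 5 arrays both factors had a lower mean in reconSCID, by 0.22 for Sox18 and 0.11 for Sox17. Tied values, in which at least 2 arrays hold the same deposited number, occurred in 11 of 17 endothelial and 4 of 15 fibroblast genes. Mean levels over the 7 arrays lay below the median probe set (6.51) for Tek, Tie1, Emcn, Sox17, Ptprb, Robo4, Lum, Pdgfra, Dpt and Mfap5.

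Of the fibroblast genes, the collagen-binding proteoglycan Dcn (decorin, probe set 10365974) differed most between arrays. It read 7.88, 8.84, 9.07 and 10.83 in reconRAG1KO and 8.41, 11.89 and 7.89 in reconSCID. The mean of the 2 arrays exceeded that of the 5 by 2.94 on the log2 scale, 7.70-fold, which ranked 1 among 19937 genes, and the groups overlapped. Its relative Lum (lumican) read 4.50, 4.62, 4.87 and 5.35 against 4.90, 5.99 and 4.83. Lum stayed low throughout, with its highest values on the same 2 arrays.

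The collagen genes showed the same order with smaller differences than Dcn. Col1a1, which encodes the main chain of type I collagen, read 8.15, 8.25, 8.25 and 8.93 in reconRAG1KO and 8.09, 9.21 and 7.87 in reconSCID. Col3a1, the type III chain of loose connective tissue, read 6.95, 7.07, 7.28 and 8.04 against 7.20, 8.65 and 7.15. Col5a1, a chain of the type V collagen that nucleates fibrils, read 7.37, 7.37, 7.37 and 7.88 against 7.32, 7.58 and 7.03. For these 3 genes the 2 arrays were the 2 highest, and on the 5 arrays the reconSCID values of Col1a1 and Col5a1 lay below all 3 reconRAG1KO values. Col6a1, a chain of the beaded-filament collagen VI, had a mean of 7.86 on the 5 arrays and 9.67 on the 2 (3.52-fold, rank 23), and Col1a2, the other chain of type I collagen, had means of 7.54 and 8.95 (2.65-fold, rank 71). Their promoters are shown because these 2 collagen genes had the largest differences between array sets of the 5, in the same window and build as above. The Col6a1 window is chr10:76726045-76726194 on the minus strand, and the Col1a2 window chr6:4505468-4505617 on the plus strand.
Col6a1: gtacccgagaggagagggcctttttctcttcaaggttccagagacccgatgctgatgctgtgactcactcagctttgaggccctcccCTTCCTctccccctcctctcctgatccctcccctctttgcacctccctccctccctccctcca
Col1a2: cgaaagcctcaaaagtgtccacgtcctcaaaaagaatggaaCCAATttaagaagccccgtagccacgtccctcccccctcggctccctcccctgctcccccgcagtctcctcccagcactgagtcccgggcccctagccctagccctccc
The capitals mark the ETS letters on the opposite strand in Col6a1 and the letters CCAAT in Col1a2, the only matches to the 3 motifs in these windows.

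The PDGF receptor genes differed from each other in size. Pdgfra, the receptor of fibroblasts and their progenitors, read 6.02, 5.94, 6.22 and 7.12 in reconRAG1KO and 6.10, 8.01 and 6.10 in reconSCID. It was 2.80 times as high on the 2 arrays, with the 5 others within 5.94 to 6.22. Pdgfrb, the receptor shared by fibroblasts and pericytes, read 6.95, 6.85, 6.98 and 7.35 against 6.73, 7.43 and 6.33. Its array difference was smaller (1.54-fold), and on the 5 arrays both reconSCID values were below all 3 reconRAG1KO values.

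The matrix and matricellular genes also had both arrays highest in 6 of 6 cases. Postn (periostin), a matricellular protein of remodelling stroma, read 6.40, 6.58, 6.92 and 7.44 in reconRAG1KO and 6.92, 8.84 and 6.68 in reconSCID. Dpt (dermatopontin), a small matrix protein bound to decorin and collagen, read 4.65, 4.76, 5.16 and 5.35 against 5.12, 6.94 and 4.91. In both genes reconSCID replicate 2 stood well above every other array. Mfap5, a microfibril component, read 6.09, 6.07, 6.09 and 6.60 against 6.08, 6.63 and 5.55. Sparc, a collagen-binding glycoprotein, ranked 22 of all genes by its array difference (means 9.75 and 7.89, 3.62-fold). The fibulin Fbln1 (2.24-fold) and fibronectin Fn1 (1.69-fold), which cross-link and anchor matrix, followed with smaller differences. Over the fibroblast genes as a whole, reconSCID replicate 2 was the highest array for 13 of 15, and over the endothelial genes for 10 of 17.

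The comparison that the design makes, reconSCID against reconRAG1KO, called no listed gene. With limma over all 34760 probe sets, 0 were called at an adjusted p under 0.05 (0%), so no member was, and each member had an adjusted p of 1. Without adjustment 1159 probe sets (3.33%) had a p under 0.05, against 0 of 17 endothelial and 0 of 15 fibroblast genes. For no member did the groups fail to overlap, whereas all reconSCID arrays lay above all reconRAG1KO arrays for 1.23% of all genes and below for 1.54%. Overlap was fixed for any gene with both arrays that stood apart above or below all 5 others, since each group holds 1 of them. This was so for 13 of 17 endothelial and 15 of 15 fibroblast genes, and for Kdr. Their overlap is therefore no evidence on the groups. The median difference, reconSCID minus reconRAG1KO, was 0.08 on the log2 scale for the endothelial genes, with 14 of 17 higher in reconSCID. It was 0.17 for the fibroblast genes, with 10 of 15 higher, against a median of -0.01 over all genes, of which 47.6% were higher. These counts depended on the 2 arrays that stood apart. Without reconSCID replicate 2, 4 of 17 and 2 of 15 were higher, with medians of -0.12 and -0.40. That fit keeps the other such array, reconRAG1KO replicate 4, so its groups are unbalanced for the array sets. With both arrays left out, 8 of 17 and 6 of 15 were higher. The intervals were wide where the array sets lay far apart: Dcn differed by 0.24 with a 95% interval of -2.38 to 2.86, Cdh5 by 0.00 (-1.01 to 1.01) and Col1a1 by -0.01 (-0.86 to 0.84).

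Once the array set entered as a block, the intervals narrowed and the list medians came nearer to 0. Limma called 0 of 34760 probe sets (0%) at an adjusted p under 0.05. At an unadjusted p under 0.05 it had 4276 probe sets (12.3%), 2 of 17 endothelial genes (11.8%) and 2 of 15 fibroblast genes (13.3%), shares near that of all probe sets. The 4 genes were Pecam1, Kdr, Col5a1 and Lum. Pecam1 differed by 0.42 on the log2 scale (95% interval 0.19 to 0.65, unadjusted p = 0.00472, adjusted p = 0.256 in limma). Kdr differed by 0.31 (0.03 to 0.60, adjusted p = 0.375), Col5a1 by -0.22 (-0.43 to -0.01, adjusted p = 0.381) and Lum by 0.33 (0.01 to 0.65, adjusted p = 0.395), none of which passed. Flt1 differed by 0.28 (-0.00 to 0.56, adjusted p = 0.408). The median difference was 0.06 for the endothelial genes (12 of 17 higher) and 0.01 for the fibroblast genes (8 of 15 higher).

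**Figure D2:**
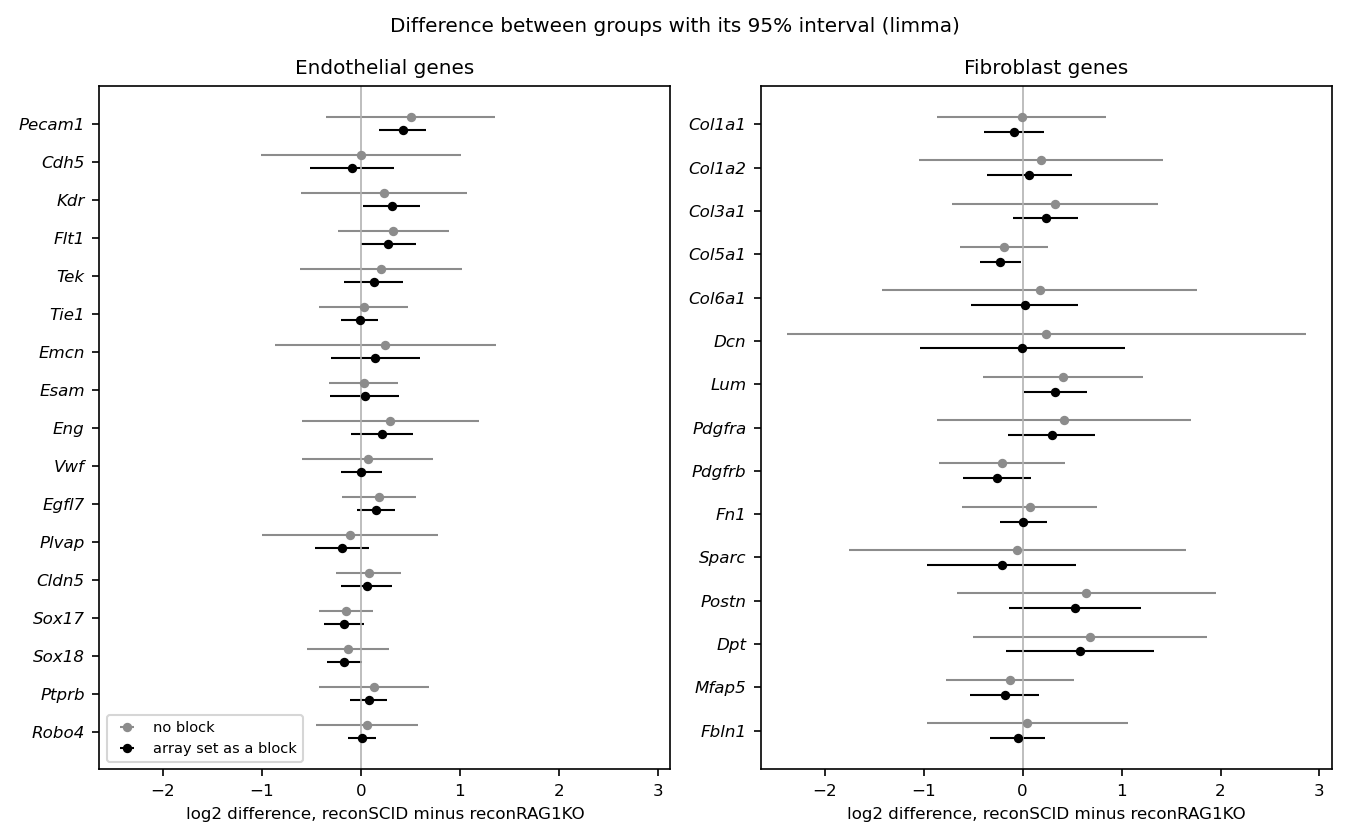
Difference reconSCID minus reconRAG1KO (log2, horizontal axis) for each gene with its 95% interval from limma over 7 arrays, grey without a block and black after blocking on the array set. Every grey interval spans 0, and the black intervals of Pecam1, Kdr, Col5a1 and Lum do not, none with an adjusted p under 0.05.

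Within the sets, the fibroblast genes did not keep 1 direction. On the 5 arrays the median difference was -0.18 for the fibroblast genes, with 6 of 15 higher in reconSCID. Both reconSCID arrays were below all 3 reconRAG1KO arrays for 4 of 15 (26.7%), namely Col1a1, Col5a1, Col6a1 and Pdgfrb, against 18.1% of all genes. For the endothelial genes the median was -0.00, with 8 of 17 higher. Pecam1 and Flt1 lay above and Sox18 below, and 13.7% of all genes lay above in this way. On the 2 arrays, 1 per group and so without a test, the median difference was 0.62 for the fibroblast genes (13 of 15 higher) and 0.28 for the endothelial genes (12 of 17 higher).

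The difference between the array sets in the group difference was fitted as an interaction in limma, a choice made after seeing the data. It was called in 0 of 34760 probe sets (0%) at an adjusted p under 0.05 and had an unadjusted p under 0.05 in 7403 (21.3%). This was so for 3 of 17 endothelial genes (17.6%), Flt1, Tek and Emcn, and for 7 of 15 fibroblast genes (46.7%). The 7 were Col6a1 (1.06, 95% interval 0.47 to 1.64, adjusted p = 0.123), Pdgfra (0.85, 0.38 to 1.33, adjusted p = 0.124), Dpt (1.43, adjusted p = 0.139), Col1a2 (0.78, adjusted p = 0.158), Postn (1.23, adjusted p = 0.167), Col1a1 (0.51, adjusted p = 0.192) and Fbln1 (0.45, adjusted p = 0.234). A positive value means a group difference that lay further towards reconSCID on the 2 arrays, and it was positive for 13 of 15 fibroblast and 13 of 17 endothelial genes, against 49.9% of all genes. The set of 2 has a single array per group, so this value rests on those 2 arrays and cannot be told apart from a difference between them alone.

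**Figure D3:**
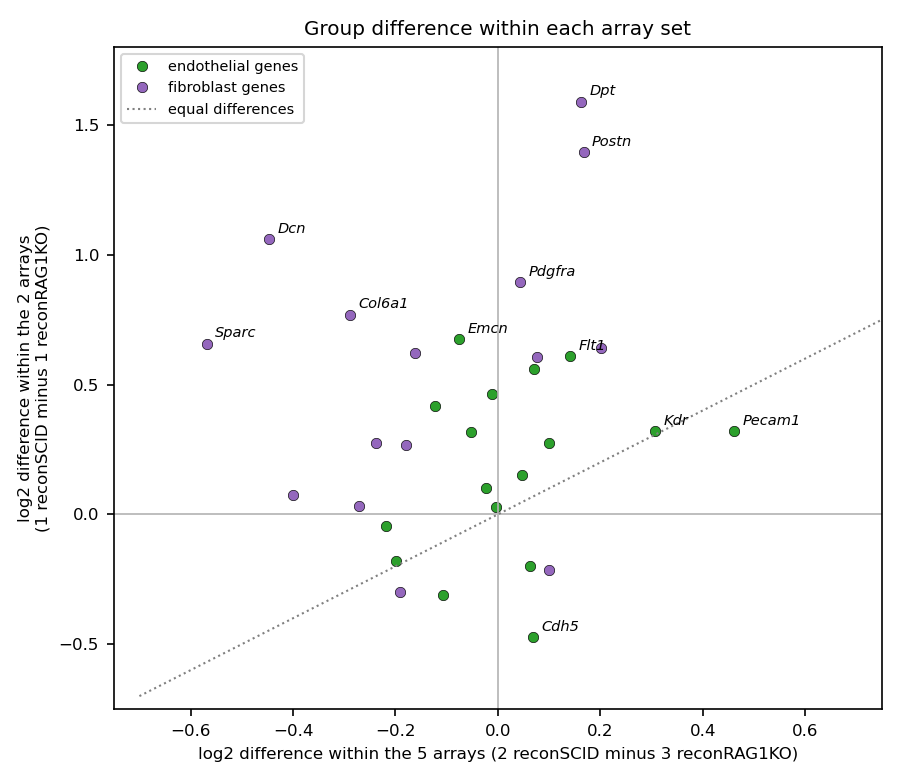
Difference reconSCID minus reconRAG1KO within the 5 arrays (horizontal axis) against the same difference within the 2 arrays (vertical axis), both log2, for each measured gene. Most fibroblast genes lie left of or near 0 on the horizontal axis (median -0.18) and above 0 on the vertical one (median 0.62).

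Other genes of the same cell types gave the same picture at smaller size. Of 23 further endothelial genes measured, 14 had both arrays above all 5 (median difference 0.37), and of 19 further mesenchymal genes 14 did (median 0.64), against 37% of all genes. For the groups, 0 of these genes had an unadjusted p under 0.05 when no block was used, with Icam2, an endothelial adhesion molecule (0.37 ± 0.17 SE), Dll4, the Notch ligand of arteries and tip cells (-0.35 ± 0.18 SE), and Fap, a protease of activated fibroblasts (0.29 ± 0.19 SE), among the smallest p. Median group differences were 0.01 in both lists. Of 16 genes for further collagen chains and collagen processing, 12 had both arrays above all 5, and none had an unadjusted p under 0.05 for the groups. P4ha1, a prolyl hydroxylase that stabilises the collagen helix, differed by 0.52 ± 0.30 SE, and Col12a1, a fibril-associated chain, by -0.48 ± 0.42 SE.

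In the lymphatic, mural and ligand lists, 1 of 5, 0 of 12 and 1 of 15 genes had an unadjusted p under 0.05, against 3.33% of all probe sets, counts too small to describe the lists. Of 5 lymphatic endothelial genes, 0 were higher in reconSCID, and Reln, a secreted glycoprotein of lymphatic vessels, differed by -0.36 ± 0.13 SE (unadjusted p = 0.0321, adjusted p = 1 in limma). Its 3 reconSCID values, 6.71, 6.67 and 6.46, lay below the reconRAG1KO values of 6.78 to 7.17. Among 15 ligands and co-receptors, Nrp1, the neuropilin that binds VEGF-A beside KDR, read 7.19, 7.33, 7.21 and 7.46 in reconRAG1KO and 7.62, 7.73 and 7.94 in reconSCID. The groups did not overlap and differed by 0.47 ± 0.12 SE (unadjusted p = 0.00561, adjusted p = 1 in limma). Nrp1 is also known from dendritic cells, and the VEGF-A gene Vegfa itself differed by 0.01 ± 0.18 SE. Of 12 pericyte and smooth muscle genes, 6 had both arrays above all 5 and 4 were higher in reconSCID. Myh11, the smooth muscle myosin chain, differed by -0.63 ± 0.36 SE and Des, the muscle filament desmin, by -0.38 ± 0.29 SE, neither past the threshold.

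Markers of other cell types and ribosomal protein genes also differed between the array sets. On the 2 arrays against the 5, the median difference was 0.97 for 10 medullary epithelial markers, 1.16 for 4 cortical epithelial markers and 0.94 for 9 basement membrane genes. It was -1.49 for 8 dendritic cell and macrophage markers, -1.05 for 6 thymocyte markers, -1.75 for 5 neutrophil markers and -1.44 for 55 ribosomal protein genes. Of the neutrophil markers, 3 of 5 had both arrays below all 5 other arrays. Their mean was about as low on reconSCID replicate 3, 1 of the 5 arrays, as on reconRAG1KO replicate 4 (6.97 and 6.96). Krt5, a keratin of medullary epithelium, read 11.85 and 12.05 on the 2 arrays and 9.36 to 10.97 on the 5. Of the 10 medullary markers, 6 had both arrays above all 5 and 2 had both below: Cd80, a costimulatory molecule (-1.09), and H2-Aa, a chain of the MHC class II molecule by which the cells were sorted (-0.62). Of the 4 cortical markers, 2 had both arrays above all 5 and 1 had both below (-0.81). The marker with the largest difference, Prss16, a protease of cortical epithelium, read 11.01 in reconRAG1KO replicate 4 and 8.13 in reconSCID replicate 2. It read 6.48 to 7.01 on the 5, a difference that ranked 3 of 19937 genes. Itgax, the CD11c integrin of dendritic cells, read 8.13 and 7.56 against 8.81 to 9.96. Their part in the higher endothelial and fibroblast levels was not tested.

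**Figure D4:**
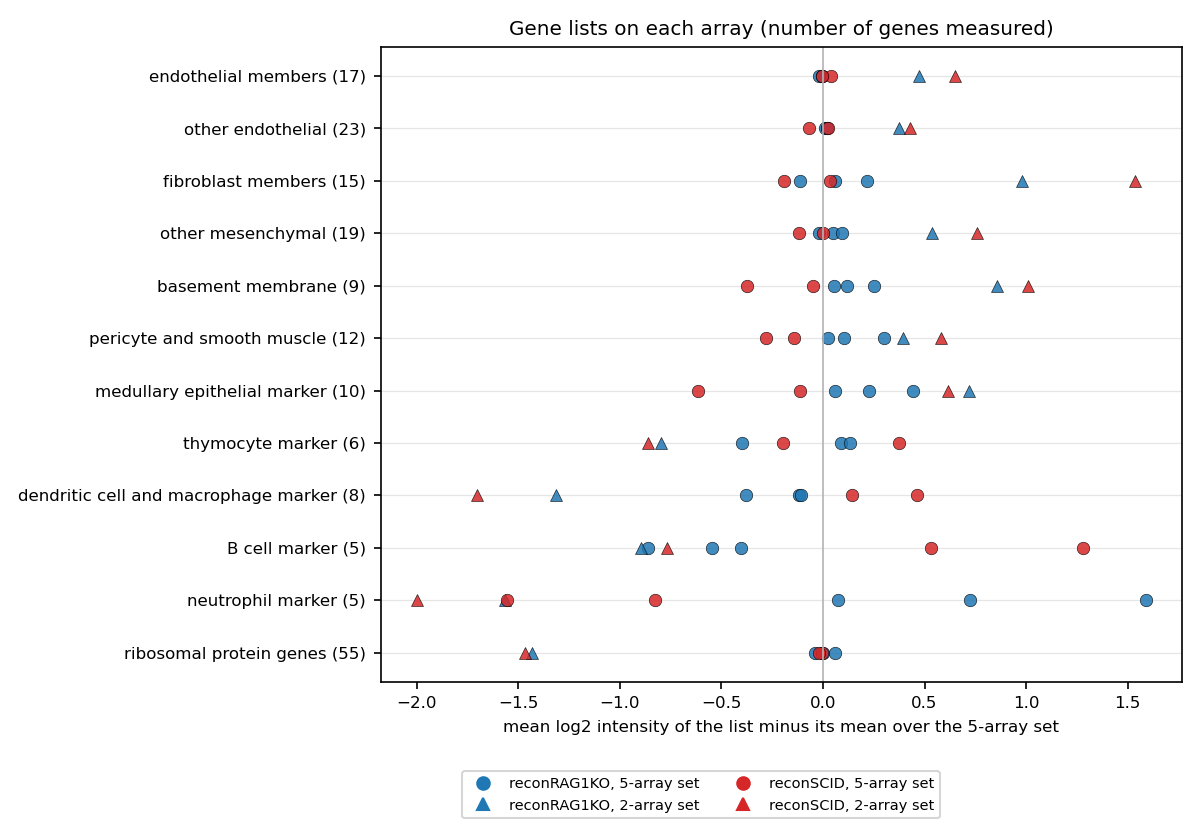
Mean log2 intensity of each gene list on each array, given as the difference from the list's mean over the 5 arrays (horizontal axis); colour gives the group, triangles the 2 arrays and circles the 5, with the number of genes measured after each name. The endothelial, fibroblast, basement membrane and medullary epithelial lists have their triangles on the right, while dendritic, thymocyte and ribosomal protein lists have theirs on the left. For the neutrophil list the triangles are also leftmost, but the circle of reconSCID replicate 3 (-1.55) lies beside the triangle of reconRAG1KO replicate 4 (-1.57).

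Between the groups, the marker lists of other cell types gave the following medians, with no test over a list and no gene past the threshold after adjustment. In the fit without a block, the median group difference was 1.13 for 5 B cell markers, -1.52 for 5 neutrophil markers, -0.45 for 10 medullary epithelial markers, -0.53 for 4 cortical epithelial markers and -0.38 for 3 mesothelial markers. The B cell factor Pax5 differed by 1.13 ± 0.44 SE, the neutrophil gene Lcn2 by -1.52 ± 0.54 SE, the medullary regulator Fezf2 by -0.53 ± 0.25 SE, the cortical chemokine Ccl25 by -1.37 ± 0.61 SE and the mesothelial gene Msln by -0.74 ± 0.32 SE, with an adjusted p of 1 each in limma. For Ccl25 the unadjusted p was 0.000615 after blocking on the array set (adjusted p = 0.233 in limma). On the 5 arrays, 9 basement membrane genes had a median of -0.43, with both reconSCID arrays below all 3 reconRAG1KO arrays for 6 of 9, against 18.1% of all genes. There Col4a1, a vessel and epithelial basement membrane chain, read 7.63 and 7.26 in reconSCID and 8.00, 8.11 and 8.25 in reconRAG1KO. On the 2 arrays the basement membrane median was 0.07, with 7 of 9 genes higher in reconSCID. No value in the table was below 1, which does not show that a marker was expressed. The part of these cell types in the group differences of the listed genes was not tested.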

How the data were processed

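Expression was measured in 7 samples (4 reconRAG1KO, 3 reconSCID). The authors deposited 1 linear intensity for each probe set, with similar array medians (88.6 to 96.3), made by a method not given in the sources used here. Of 34760 probe sets, 21640 had 1 gene symbol, 1321 several and 11799 were unnamed in the platform annotation, and RefSeq (GRCm38.p6) held the 32 measured members with 0 symbols that differ. In 46.2% of probe sets at least 2 arrays held the same value, which can make the spread look too small. The number of arrays limits the precision.

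Log2 was taken with no pseudocount, and groups from the sample titles were compared by limma (version 3.58.1, run in R 4.3.3; linear fit and empirical Bayes). Tests were two-sided, and Benjamini-Hochberg adjusted p-values over all probe sets were held to 0.05. The fits were checked on simulated data. Members and lists were chosen with earlier results of these data known, so lists are described by counts and medians beside those of all genes, with no test over a list. Values in every sample are given for up to 8 endothelial and 8 fibroblast members with the smallest unadjusted p in the fit blocked by array set, any whose groups do not overlap, and the defining genes Pecam1, Cdh5, Kdr, Col1a1, Pdgfra and Pdgfrb, with Dcn added after its values were seen. Other lists name up to 3 genes by unadjusted p in the fit without a block, and defining markers. Vegfa, beyond these, was chosen after its values were seen, and Xist was added to follow the sex of the samples. Of the alternatives, quantile normalization, median centring, a filter on low values (mean above the median probe set, passed by 11 of 17 endothelial and 11 of 15 fibroblast members), a pseudocount of 16, an intensity trend with a robust fit, array weights, replicate and array set blocks, single array sets, the mean of a gene's probe sets and leaving out each sample were tried.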

Additional observations from a re-analysis of the deposited data

Results flagged for a closer look

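In 8 of 32 measured members, 1 reconRAG1KO array lay far from the other 3 of its group, with the gap to its nearest neighbour given here as a share of the group's whole range on the log2 scale. Chance flags about 1 in 20 groups, but 31.1% of all genes met the same limit in this group. Within its group, reconRAG1KO replicate 4 was the highest array for Plvap (0.95), Sox18 (0.924) and Robo4 (0.894) among the endothelial genes. It was also the highest of its group for Col5a1 (1), Mfap5 (0.95), Col1a1 (0.864) and Col1a2 (0.849) among the fibroblast genes, and for the mean of the 17 endothelial genes (0.97). Replicate 4 is the reconRAG1KO array of the set of 2. Cldn5 was the exception, with reconRAG1KO replicate 3 the lowest array (1), and there the other 3 arrays shared 1 value, as did the lower 3 arrays for Col5a1. The reconSCID group, with 3 arrays, was not examined in this way.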

How the results depend on the processing

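No member was called under any setting tried; array weights called 57 probe sets over the whole table, and an unadjusted threshold 1159. Directions were far less stable. The endothelial count higher in reconSCID (14 of 17) was 9 of 11 under the filter on low values, where fewer genes are tested, 8 on the 5 arrays, and 4 to 14 when a sample was left out. The fibroblast count (10 of 15) was 6 under array weights and on the 5 arrays, and 2 to 14 when a sample was left out; both counts were lowest without reconSCID replicate 2. With a sample left out the medians ranged from -0.12 to 0.25 for endothelial and from -0.40 to 0.56 for fibroblast genes. Signs turned under quantile normalization for Cdh5 (-0.034), Tie1 (-0.0013), Col1a1 (0.022) and Sparc (0.010), and for Cdh5 under centring (-0.012) and the pseudocount (-0.0059). With array weights they turned for Esam (-0.036), Cldn5 (-0.0033), Col1a2 (-0.045), Col6a1 (-0.21), Dcn (-0.23) and Fbln1 (-0.13), and with a block for the array set they turned for Cdh5 (-0.090), Tie1 (-0.014), Dcn (-0.0036) and Fbln1 (-0.048). On the 5 arrays they turned for Tek (-0.012), Emcn (-0.076), Esam (-0.12), Vwf (-0.0045), Cldn5 (-0.052), Robo4 (-0.023), Col1a2 (-0.16), Col6a1 (-0.29), Dcn (-0.45) and Fbln1 (-0.18). On the 2 arrays they turned for Cdh5 (-0.47), Tie1 (-0.20), Col1a1 (0.28), Pdgfrb (0.076), Fn1 (-0.21), Sparc (0.66) and Mfap5 (0.032). The cause was not tested.

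Leaving out 1 sample at a time, with and without a block for the array set, the differences ranged from -0.27 to 0.34 (Cdh5), -0.087 to 0.18 (Tie1), -0.19 to 0.25 (Vwf), -0.028 to 0.55 (Kdr), -0.12 to 0.16 (Esam), -0.45 to 0.17 (Plvap), -0.19 to 0.42 (Tek), -0.30 to 0.60 (Emcn), -0.12 to 0.55 (Eng), -0.068 to 0.18 (Cldn5), -0.094 to 0.27 (Ptprb) and -0.15 to 0.19 (Robo4). For fibroblast genes they ranged from -1.01 to 0.996 (Dcn), -0.13 to 0.30 (Fn1), -0.42 to 0.32 (Fbln1), -0.42 to 0.25 (Col1a1), -0.89 to 0.46 (Sparc), -0.40 to 0.14 (Mfap5), -0.42 to 0.56 (Col1a2), -0.16 to 0.59 (Col3a1), -0.62 to 0.61 (Col6a1), -0.22 to 0.73 (Pdgfra), -0.035 to 1.04 (Postn) and -0.51 to 0.045 (Pdgfrb).

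Deviations from the group means correlated at 0.47, -0.51 and 0.31 for same-numbered samples and at -0.63 to 0.71 for differently numbered ones. The sign followed the array set, positive for pairs within a set and negative for pairs across sets. These values therefore cannot tell whether the replicate numbers pair the samples. The replicate block leaves no information from reconRAG1KO replicate 4, 1 of the 2 arrays that stand apart, because no reconSCID sample has that number, so its differences equal those without that sample. With the replicate block 0 probe sets were called, 13 endothelial and 13 fibroblast genes were higher (medians 0.25 and 0.44), and signs turned for Kdr (-0.0053), Esam (-0.063), Plvap (0.14), Col1a1 (0.17), Sparc (0.27) and Mfap5 (0.0023).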
